A study of Mus musculus with 2 samples.

Results

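The nuclear genes for the subunits of oxidative phosphorylation were examined in mouse bone marrow cells cultured with or without heme. The members were all genes of the count matrices whose symbols start with Ndufa, Ndufb, Ndufc, Ndufs, Ndufv, Sdh, Uqcr, Cox4 to Cox8 or Atp5, without the Ndufaf assembly factors and without pseudogenes. The rule took in 90 of the 26124 genes, under 89 symbols, since Atp5o is listed under 2 identifiers. Complex I had 38 members, complex II 8, complex III 8, complex IV 18 and complex V 18. Members were put to a complex by symbol, so Ndufa4, now regarded as a subunit of complex IV, is counted under complex I. Of the 90, 5 are no subunits of a complex. Sdhaf1, Sdhaf2, Sdhaf3 and Sdhaf4 help to assemble complex II, and Cox7a2l is described as joining complexes III and IV into larger assemblies. Whether it does so in these cells was not examined. No UMI was found for 4 members in any kept cell: Cox7b2, the testis form Cox8c, the muscle form Cox8b and the entry of Atp5o with the second identifier.

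The respiratory chain of the inner mitochondrial membrane passes electrons from NADH through complex I and from succinate through complex II to complex III, cytochrome c and complex IV, which reduces oxygen. Complexes I, III and IV pump protons, and complex V, the ATP synthase, lets them flow back and makes ATP. Most subunits are encoded in the nucleus, translated in the cytosol and imported, whereas a small core set is transcribed and translated inside the mitochondrion. Heme itself is a cofactor of complexes II, III and IV and of cytochrome c, and macrophages and dendritic cells are known to shift between respiration and glycolysis when they are activated.

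The cultures were grown from lineage-depleted bone marrow of C57BL/6 mice with GM-CSF at 20 ng/ml, a cytokine under which progenitors become granulocytes, macrophages and dendritic cells. The control library came from cultures given albumin, and the heme library from cultures given heme bound to albumin at 300 µM, in both cases on day 3. Each library was 1 pool of 5 cultures, marked by hashtags for culture days 0, 3, 4, 5 and 7, so that days 0 and 3 precede the addition in both libraries. The labels give culture days, whereas the design text gives hours of exposure that do not match day 5, and culture days are used here. The scRNA-seq reads came from the 3′ end of each transcript and were collapsed to unique molecular identifiers (UMIs). With 1 library per group no replicate exists and no test between the groups was possible, so ratios are given with 95% intervals that cover counting error only.

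The libraries already differed on days 0 and 3. After the cell limits, the 5 control cultures held 359 to 2565 cells and the 5 heme cultures 1118 to 2481 cells, with 2344257 to 32835088 UMIs per culture. The control culture of day 0 was the smallest, since the limits, mostly that on ribosomal UMIs (a median of 33.2% in its singlets), left 359 of 1716 singlets. A total of 112 barcodes occurred in both libraries, of which 29 were kept in both. Leaving them out moved no median and no count of members beyond the limits used in the closing section. Whether the cells of days 0 and 3 came from separate cultures for each library is not described.

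As a share of all gene UMIs, the members were lower in the heme library on every culture day, before heme as well as after. Their summed share for control was 2.77%, 2.98%, 2.57%, 2.71% and 2.95% over days 0, 3, 4, 5 and 7. For heme it was 2.41%, 2.40%, 1.79%, 2.05% and 2.20% on the same days. The 5 shares of a library are from different culture days, so their range does not measure a spread between libraries. The ratio of heme to control was 0.867 (0.859 to 0.874) on day 0 and 0.805 (0.803 to 0.808) on day 3, and after the addition of heme it was 0.698 (0.696 to 0.701) for day 4, 0.757 (0.755 to 0.760) for day 5 and 0.746 (0.743 to 0.748) for day 7. The day 7 ratio was thus 0.746 against 0.805 in the unexposed cultures of day 3. These sums pool all cells of a culture, so fewer cells of a type and less RNA per cell cannot be told apart in them.

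The 13 subunits of the mitochondrial genome did not follow this pattern. Their share was 3.75%, 3.74%, 3.73%, 4.33% and 4.64% on days 0, 3, 4, 5 and 7 for control and 4.47%, 4.40%, 4.13%, 4.44% and 4.94% for heme. As plain shares they were higher in the heme library on each day, with ratios between 1.02 on day 5 and 1.19 on day 0. The nuclear members were lower. The median gene was also higher in the heme library. Relative to it, the log2 ratio of the 13 subunits' summed share was −0.04, −0.01, −0.08, −0.17 and −0.17 on days 0, 3, 4, 5 and 7. The cytosolic ribosomal proteins, another group of short and abundant transcripts, were lower in the heme library from day 3 on, with 21.1% for control against 15.7% for heme on day 7.

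**Figure D1:**
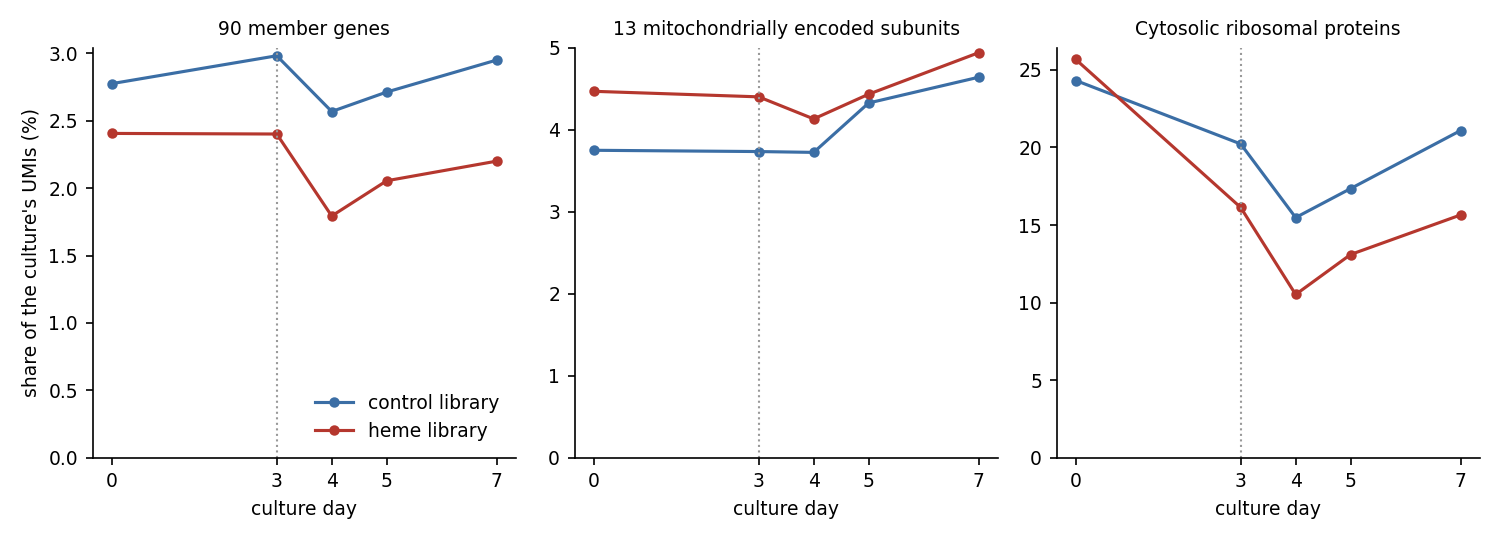
Share of all gene UMIs (%, vertical axis) by culture day (horizontal axis) in the control and heme libraries, for the 90 nuclear members, the 13 mitochondrially encoded subunits and the cytosolic ribosomal proteins. Each point is 1 culture and the dotted line marks day 3, when heme was added. The nuclear members lie lower in the heme library on all 5 days, including days 0 and 3, whereas the mitochondrially encoded subunits lie higher. Shares are not set against the median gene, which was also higher in the heme library.

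Single genes were compared by CPM, a gene's UMIs scaled to a total of 1000000 per culture. The median gene itself was higher in the heme library, by 0.30, 0.25, 0.23, 0.21 and 0.26 on the log2 scale on days 0, 3, 4, 5 and 7. Log2 ratios of heme to control are therefore given relative to this median gene of the same day and are called centred. Genes with a mean of 10 CPM over both cultures entered, and a gene was called higher or lower when its centred ratio was 1.5-fold or more away from the median gene.

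On day 0, 37 of the 83 members that passed this limit were called lower and 0 higher, where 14.8% of all 8317 genes were called lower and 11.2% higher. On day 3, 38 of 81 members were called lower and 0 higher, against 13.9% and 7.71% of all genes. After the addition of heme, 59 of 80 members were called lower on day 4 and 0 higher, against 17.8% and 10.4% of all genes. On day 5, 46 of 80 were called lower and 0 higher, against 15.8% and 10.7%. On day 7, 52 of 80 were called lower and 1, Ndufa4, was called higher, against 18.9% and 15.4% of all genes. The share of members called lower thus exceeded the share of all genes on each day in centred ratios, on the days before heme too. Without centring, in plain CPM, 3, 10, 33, 25 and 20 members were called lower on days 0, 3, 4, 5 and 7, against 5.48%, 4.28%, 9.77%, 8.51% and 10.5% of all genes. On that scale the share of members was below that of all genes on day 0 and above it on the other days. Members called higher in plain CPM numbered 1 on day 0, 2 on day 7 and 0 on the other days, against 28.5%, 23.3%, 23.9%, 22.1% and 28.8% of all genes.

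The median centred log2 ratio of the members was −0.55, −0.55, −0.76, −0.61 and −0.71 over days 0, 3, 4, 5 and 7. It was below the median gene for 78 of 83, 79 of 81, 80 of 80, 79 of 80 and 77 of 80 members on these days. The complexes lay close to each other. On day 3 their medians were −0.63 for complex I, −0.66 for complex II, −0.48 for complex III, −0.54 for complex IV and −0.53 for complex V. On day 7 they were −0.71, −0.49, −0.77, −0.65 and −0.71 in the same order. Complex II had the smallest median difference on day 7 and the largest on day 3. Its 7 members over the limit, among them the assembly factors Sdhaf1, Sdhaf2 and Sdhaf4, ranged from −1.49 to 0.01 on day 7.

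**Figure D2:**
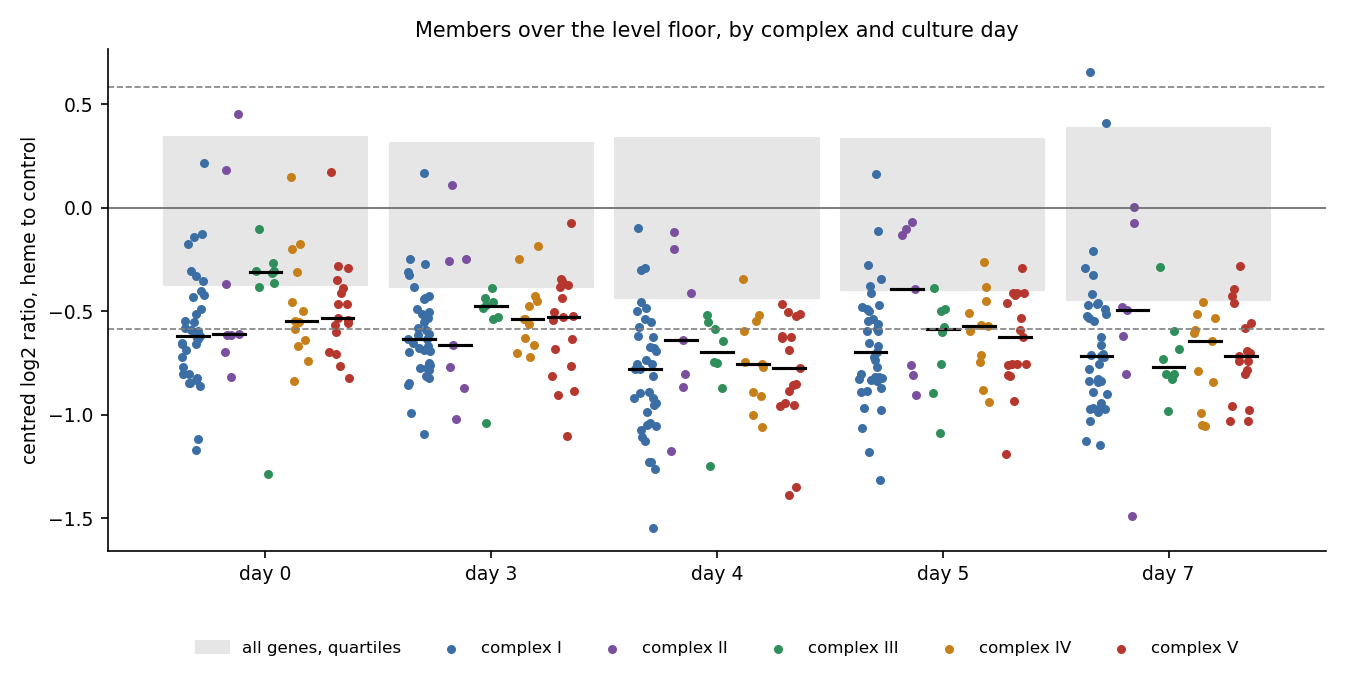
Centred log2 ratio of heme to control (vertical axis) for each member over the expression limit, by complex and culture day. Points are genes, black bars the median of a complex, the grey band the quartiles of all genes and the dashed lines 1.5-fold. The medians lie below 0 in all 5 complexes on all 5 days, and on day 7 the 1 member above the upper dashed line is Ndufa4.

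Members have short transcripts, and across all genes the ratio between the libraries moved with transcript length. The longest coding transcript of the members had a median of 908 to 913 bases, depending on the day, against 3078 to 3097 bases for all genes that passed the limit. Across all genes, Spearman's rho between length and centred ratio was 0.59, 0.67, 0.59, 0.54 and 0.43 on days 0, 3, 4, 5 and 7. These are correlations across genes of 1 pair of cultures, and genes are not independent replicates. Among the members rho was 0.09, −0.05, −0.13, −0.16 and 0.03.

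Genes of like length were therefore set beside the members. Under 1000 bases, other genes (without ribosomal proteins) had median centred ratios of −0.64, −0.62, −0.63, −0.57 and −0.64 on days 0, 3, 4, 5 and 7. The members of that length, 44 to 46 on each day, had −0.58, −0.55, −0.72, −0.59 and −0.69. The members thus lay on either side of other short genes. From 1000 to under 2000 bases, other genes had −0.41, −0.43, −0.45, −0.39 and −0.38, and the 24 members had −0.48, −0.62, −0.87, −0.76 and −0.80. In this class the gap was wider on days 4, 5 and 7 than on days 0 and 3. From 2000 to under 4000 bases the 10 members had −0.27, −0.30, −0.49, −0.36 and −0.41 on days 0, 3, 4, 5 and 7. Other genes of that length had a median near that of all genes on each day, before heme too. At 4000 bases or more, other genes had 0.29, 0.32, 0.30, 0.28 and 0.26. The few members of that length, 3 on day 0 and 2 on the later days, had −0.71, −0.85, −1.13, −0.82 and −0.50. The part of transcript length in the difference between the libraries was not tested.

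**Figure D3:**
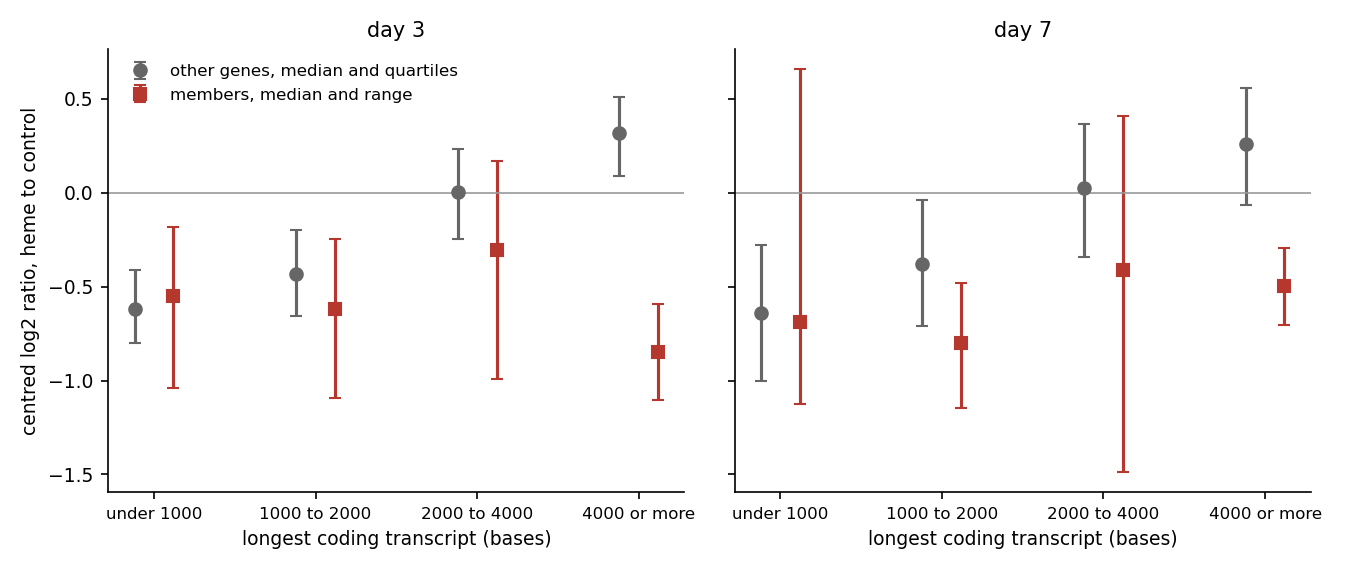
Centred log2 ratio of heme to control (vertical axis) by length of the longest coding transcript in 4 classes (horizontal axis, bases), on days 3 and 7. Bars show the quartiles of other genes around their median, and members are given as the median with their range. On both days the ratio of other genes is lowest in the shortest class, and the members of that class lie near it.

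Complex I takes electrons from NADH, and 37 of its 38 members passed the limit on day 7. Of these, 23 were called lower, 1 was called higher, and 13 were not called, against 18.9% lower and 15.4% higher among all genes. The 1 called higher was Ndufa4, counted here by its symbol. Its core holds iron-sulfur and flavin subunits that carry the electrons. Among these, Ndufs8 stood on days 0, 3, 4, 5 and 7 at 149, 114, 94.1, 103 and 91.2 CPM for control and 84.3, 76.5, 47.1, 52.5 and 55.7 CPM for heme. The heme value was below the control value on each day, with centred ratios of −1.12, −0.82, −1.23, −1.18 and −0.97. Ndufv1, which binds NADH and flavin, stood at 88.3, 63.9, 52.1, 58.5 and 61.0 CPM for control and 98.4, 46.8, 29.5, 34.4 and 37.4 CPM for heme. Its centred ratio was −0.14 on day 0, when the heme value was higher in CPM, and from −0.70 to −1.05 on the later days. Ndufv2 and Ndufs3, core subunits of the same arm, had day 7 ratios of −0.97 and −0.99.

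The largest core subunit, Ndufs1, ran the other way in CPM. It stood at 53.7, 40.7, 35.8, 33.5 and 31.3 CPM for control and 76.7, 54.3, 39.3, 43.3 and 49.8 CPM for heme. The heme value was higher in CPM on all 5 days, and the day 7 ratio of 1.59 (1.47 to 1.73) was the second highest of the members. Its centred ratios of 0.22, 0.17, −0.10, 0.16 and 0.41 stayed within 1.5-fold of the median gene, and its value on day 7 was 0.41 against 0.17 on day 3.

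Ndufa12, an accessory subunit of the matrix arm, had the lowest centred ratio of all members on days 4 and 5. It stood at 148, 147, 113, 119.8 and 125 CPM for control and 115, 81.5, 45.5, 55.6 and 67.9 CPM for heme. The heme library held the lower value on each day, and the centred ratios of −0.66, −1.10, −1.55, −1.32 and −1.15 show that a gap of −1.10 was present on day 3. Ndufb10 and Ndufb5, accessory subunits of the membrane arm, had −1.03 and −0.97 on day 7 and −0.76 and −0.81 on day 3. Ndufc2 had −0.90 on day 7 and −0.85 on day 3, and Ndufa13 had −0.89 and −0.61. Ndufa2, an accessory subunit, stood at 381, 432, 375, 398 and 438 CPM for control and 428, 432, 359, 425 and 454 CPM for heme. Its values in the 2 libraries were close, with centred ratios between −0.29 and −0.11, and it was not called on any day. Ndufb7 had centred ratios from −0.58 to −0.38 and was also not called on any day.

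Complex II, succinate dehydrogenase, links the citric acid cycle to the chain. Its catalytic subunit Sdha, which carries the flavin, stood on days 0, 3, 4, 5 and 7 at 99.0, 82.0, 71.7, 77.6 and 83.7 CPM for control and 166, 105, 77.5, 85.6 and 95.4 CPM for heme. It was higher in CPM in the heme library on each day, and its centred ratios of 0.45, 0.11, −0.12, −0.07 and −0.07 lay within 1.5-fold of the median gene. Sdhb, the iron-sulfur subunit, stood at 135, 99.7, 93.5, 99.5 and 101 CPM for control and 109, 69.5, 60.3, 67.9 and 86.7 CPM for heme. Its centred ratio was −0.77 on day 3 and −0.48 on day 7, so that the gap was smaller on day 7. The membrane anchors Sdhc and Sdhd, which hold the heme group, differed from each other, with centred ratios on day 7 of 0.01 for Sdhc and −0.80 for Sdhd. On day 3 they had −0.25 and −0.87. The assembly factors Sdhaf2 and Sdhaf4 had −0.49 and −0.62 on day 7, and Sdhaf3 passed the limit only on day 0, with −0.82.

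Complex III passes electrons from ubiquinol to cytochrome c. All 8 of its members passed the limit, 7 were called lower on day 7 and 1 on day 3, against 18.9% and 13.9% of all genes. Uqcrh, the hinge protein beside cytochrome c1, stood at 636, 534, 474, 547 and 732 CPM for control and 599, 463, 379, 448 and 495 CPM for heme on the 5 days. The control value was highest on day 7 and the heme value on day 0, and the centred ratio was −0.45 on day 3 and −0.83 on day 7. Uqcrb, which lies near the ubiquinone site, stood at 378, 579, 475, 426 and 421 CPM for control and 191, 334, 235, 232 and 255 CPM for heme. It was called lower on all 5 days, and its gap was widest on day 0, with centred ratios of −1.28, −1.04, −1.25, −1.09 and −0.98. Uqcrq and Uqcr10, small accessory subunits, had −0.59 and −0.68 on day 7, and −0.47 and −0.43 on day 3.

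Complex IV, cytochrome c oxidase, holds nuclear subunits that exist in tissue forms. Cox4i1 stood on days 0, 3, 4, 5 and 7 at 1054, 1305, 1150.0, 1297 and 1433 CPM for control and 943, 1066, 801, 992 and 1139 CPM for heme. The heme value was lower on each day, and the centred ratio was −0.54 on day 3 and −0.59 on day 7. Cox8a stood at 1135, 1329, 1129.6, 1244 and 1453 CPM for control and 896, 970.1, 715, 856 and 841 CPM for heme. The control value was highest on day 7 and the heme value on day 3, and the centred ratio was −0.70 on day 3 and −1.05 on day 7, a ratio in CPM of 0.579 (0.570 to 0.588).

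Cox5a and Cox5b, which form the matrix side of the enzyme, had centred ratios of −0.99 and −1.05 on day 7 and of −0.66 and −0.72 on day 3. Cox7b had −0.84 on day 7 and −0.63 on day 3, Cox7c −0.65 and −0.45, and Cox6b1 −0.60 and −0.54. Cox6a1 and Cox7a2 were not called on day 7, with −0.45 and −0.53. Cox7a2l, described as an assembly factor of supercomplexes, stood at 238, 232, 208, 277 and 424 CPM for control and 255, 232, 192, 267 and 356 CPM for heme. It was higher on day 7 than on day 3 in both libraries, by a factor of 1.83 in the control and 1.53 in the heme library, and its centred ratio was −0.25 on day 3 and −0.51 on day 7.

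From day 3 on the tissue forms stood low, whereas Cox6a2 and Cox6b2 were higher on day 0. Cox4i2, the lung and oxygen-sensitive form, stood at 0.85, 8.11, 1.00, 0.51 and 0.67 CPM for control and 1.57, 4.84, 0.36, 0.26 and 0.85 CPM for heme and was thus seen mainly on day 3, in both libraries. Cox6a2, the heart and muscle form, stood at 35.0, 3.11, 0.96, 1.21 and 1.31 CPM for control and 25.7, 2.47, 0.84, 1.65 and 1.22 CPM for heme, and Cox6b2, the testis form, at 72.9, 11.8, 5.28, 7.54 and 7.92 CPM for control and 99.2, 10.1, 6.70, 5.68 and 5.27 CPM for heme. Both were highest on day 0 in both libraries. Cox7a1, another muscle form, reached 12.0 CPM in the control and 5.49 CPM in the heme library on day 7, its highest value in the control. Ndufa4l2, a form of Ndufa4 induced under low oxygen, had 25 UMIs in all cultures together. Of these, 19 were in the control culture of day 7, where it was detected in only 0.117% of cells.

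Complex V, the ATP synthase, had 11 of 17 members called lower on day 7 and 7 of 17 on day 3. Of all genes, 18.9% and 13.9% were called lower on these days. Atp5e, a small subunit of the central stalk, stood at 932, 961, 898, 1003 and 1197 CPM for control and 859.6, 876, 744, 870.0 and 887 CPM for heme on the 5 days. The control value was highest on day 7, whereas the heme values of days 3, 5 and 7 were close to each other, and the centred ratio was −0.38 on day 3 and −0.69 on day 7. Atp5d, next to it in the stalk, had −0.81 and −0.98, and Atp5j of the peripheral stalk had −0.68 and −0.96. Atp5h, also of the peripheral stalk, had −0.52 and −0.78, and Atp5l of the membrane part −0.35 and −0.46.

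The 3 genes for the membrane ring encode the same mature protein and differed in their course. Atp5g1 stood at 695, 737, 550.3, 585 and 578 CPM for control and 523, 407, 253, 353 and 426 CPM for heme. The gap was wider on days 3 and 4 than on day 7, with centred ratios of −0.71, −1.10, −1.35, −0.93 and −0.70. Atp5g2 stood at 793, 592, 449, 513 and 699 CPM for control and 662, 376, 271, 351 and 409.8 CPM for heme, with centred ratios of −0.56, −0.90, −0.96, −0.75 and −1.03. Atp5g3 had −0.37 on day 3 and −0.39 on day 7 and was called on day 4 alone, with −0.62. Atp5o, which ties the stalk to the catalytic head, had −0.53, −0.88, −1.39, −1.19 and −1.03 on the 5 days and was the second lowest member on days 4 and 5.

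Since most gaps were present on day 3, before heme, each gene's ratio was also divided by its own day 3 ratio and centred again on the median gene. On this scale the members had a median of −0.16 on day 4, −0.06 on day 5 and −0.16 on day 7, over 80 members. On day 4, 0 members were past 1.5-fold in either direction, against 2.18% of all genes called higher and 2.18% lower. On day 5, 1 member was higher, Sdhaf4 with 0.63, and 0 were lower, against 3.82% and 5.11% of all genes. On day 7, 1 member was higher, Ndufa4, and 2 were lower, Sdhaf1 and Ndufa6, against 9.45% and 9.73% of all 7037 genes. The share of members past 1.5-fold was thus below the share of all genes in each case. Such counts leave out smaller shifts. All 11 complex IV members lay below the median gene on days 4 and 7, with highest values of −0.05 and −0.07. All 8 complex III members did so on day 4, with a highest value of −0.05. Members of complexes I, II and V lay on both sides of the median gene on each of these days. By complex, the day 7 medians were −0.09 for complex I, 0.05 for complex II, −0.28 for complex III, −0.24 for complex IV and −0.16 for complex V. The mitochondrially encoded subunits had −0.18 and the cytosolic ribosomal proteins −0.12.

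**Figure D4:**
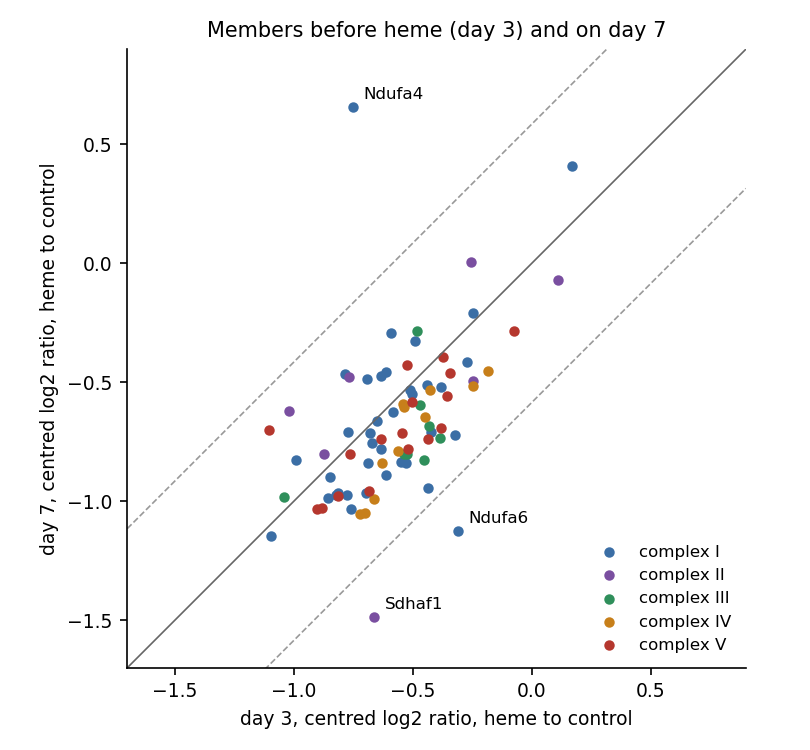
Centred log2 ratio of heme to control on day 3 (horizontal axis) and day 7 (vertical axis) for each member over the expression limit on both days. The solid line marks equal ratios and the dashed lines 1.5-fold from it. Most members lie between the dashed lines, more often below the solid line than above it. Ndufa4 lies far above the upper dashed line, and Ndufa6 and Sdhaf1 lie below the lower one.

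Ndufa6, an accessory subunit of the complex I matrix arm, is on chromosome 15 (82350140 to 82354322, minus strand, GRCm38). On days 0, 3, 4, 5 and 7 it stood at 227, 220.4, 210.3, 248 and 290.4 CPM for control and 218, 211, 161, 168 and 159 CPM for heme. The libraries were close on days 0 and 3, and afterwards the control value was highest on day 7, whereas the heme values of days 4, 5 and 7 lay below those of days 0 and 3. Day 7 against day 3 gave a ratio of 1.32 in the control and 0.755 in the heme library. The ratio of heme to control was 0.957 (0.925 to 0.99) on day 3 and 0.548 (0.529 to 0.569) on day 7, and divided by day 3 the centred log2 ratio was −0.83 (−0.91 to −0.76).

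Sdhaf1, which protects the iron-sulfur subunit Sdhb while complex II is built, stood at 38.4, 22.6, 21.7, 30.7 and 42.1 CPM for control and 30.9, 17.0, 14.6, 18.9 and 18.0 CPM for heme. In the control library its level on day 7 was 1.86 times that on day 3, and in the heme library 1.06 times. Its day 7 ratio of 0.427 (0.384 to 0.474) was the lowest of the members over the limit, resting on 1381 control and 484 heme UMIs. Divided by day 3, the centred log2 ratio was −0.85 (−1.07 to −0.62), an interval that reaches close to the limit of 1.5-fold. The next member was Ndufa1, an accessory subunit of the membrane arm, with −0.53 (−0.61 to −0.45), which did not pass.

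Ndufa4 was the member that stood apart. The protein was first described in complex I and is now regarded as a subunit of complex IV. By its symbol it is counted under complex I in all values by complex. Its gene lies on chromosome 6 (11900292 to 11907497, minus strand, GRCm38). On days 0, 3, 4, 5 and 7 it stood at 772, 815, 591, 459.8 and 228 CPM for control and 611, 575, 361, 352 and 431 CPM for heme. In the control library the level was lower on each later day from day 3 on, whereas in the heme library it was lower on days 4 and 5 and higher again on day 7. Day 7 against day 3 gave 0.280 for control and 0.75 for heme. The ratio of heme to control was 0.706 (0.693 to 0.720) on day 3 and 1.89 (1.83 to 1.94) on day 7, counted from 7497 control and 11622 heme UMIs. Divided by day 3, the centred log2 ratio was 1.39 (1.34 to 1.44), against 0.38 for the next member, Atp5g1. The centred log2 ratios of the 5 days were −0.63, −0.75, −0.94, −0.59 and 0.66. With each cell weighted equally in place of summed UMIs, the day 7 value was 0.55 and no longer past 1.5-fold.

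A paralog of Ndufa4 differed between the libraries in the opposite direction on days 3 and 7. On days 0, 4 and 5 both genes were lower in the heme library. AA467197, which the rule did not take in, encodes a small mitochondrial protein known to take the place of Ndufa4 in complex IV when macrophages are activated. Its gene is on chromosome 2 (122636986 to 122641191, plus strand) and holds the microRNA gene Mir147 (122640803 to 122640881), whose human counterpart is known to target the transcript of Ndufa4. MicroRNAs were not measured in these libraries. AA467197 stood on days 0, 3, 4, 5 and 7 at 15.8, 148, 418, 451 and 1149.6 CPM for control and 12.6, 205, 408, 275 and 144 CPM for heme. In the control library it was higher on each later day, and in the heme library it was highest on day 4 and then lower. The ratio of heme to control was 0.126 (0.122 to 0.130) on day 7, and the centred log2 ratios were −0.63, 0.22, −0.27, −0.92 and −3.25. AA467197 was put on a pathway list because of its relation to Ndufa4, with its values known. Whether the levels of these genes are linked was not tested.

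**Figure D5:**
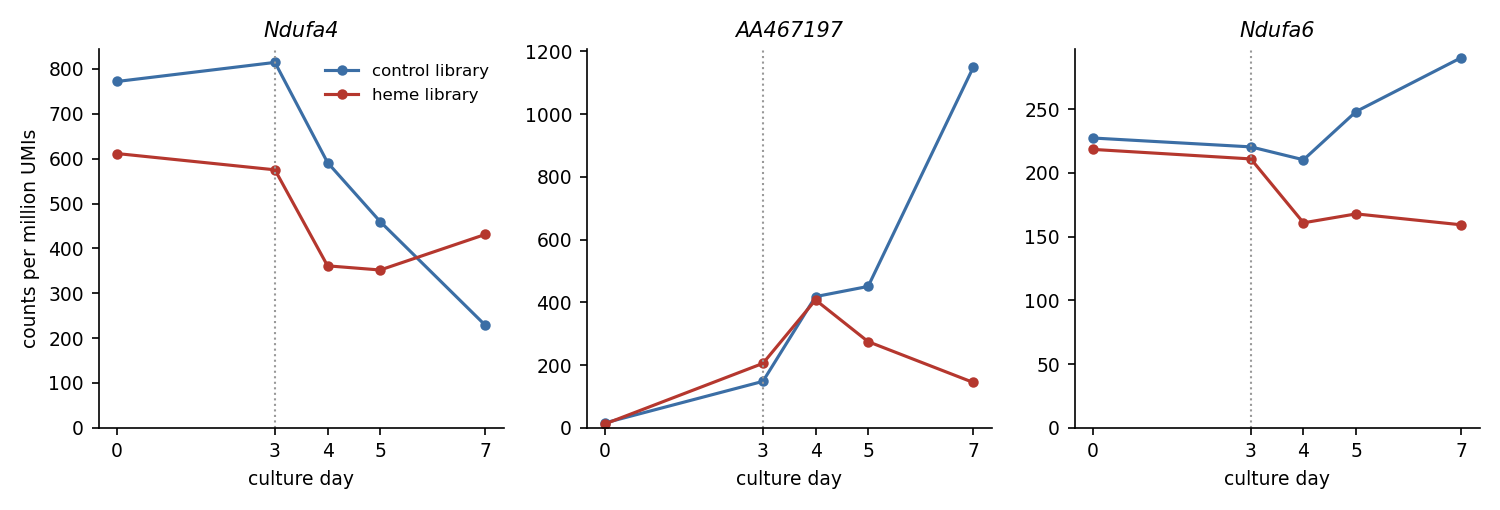
Level (CPM, vertical axis) by culture day (horizontal axis) of Ndufa4, its paralog AA467197 and Ndufa6 in the control and heme libraries. Each point is 1 culture. Ndufa4 is lower in the heme library up to day 5 and higher on day 7 (431 against 228 CPM), AA467197 is higher in the control library on day 7, and Ndufa6 diverges after day 3.

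The promoters of the members that stood apart are shown because nuclear respiratory genes are known to be controlled through a small set of factors. Promoters of 73 of the 89 member symbols were found in RefSeq (GRCm38.p6), each from 250 bases before to 50 bases after the gene's start, in the direction of the gene. The letters of 4 factors were searched on both strands, and matches are given in capitals: GCGCATGC for NRF1, CCGGAAGT for GABPA, AAGATGGC for YY1 and TGACNNNGC for NRF2. NRF2 here means NFE2L2, a regulator of the response to oxidative stress, and not the respiratory factor GABPA. The promoter of Ndufa4 (chr6:11907401-11907700, minus strand) and that of Sdhaf1 (chr7:30322326-30322625, minus strand) held none of them. The promoter of Ndufa6 (chr15:82354242-82354541, minus strand) held 1 NRF1 motif, 83 bases before the start, and that of Cox8a (chr19:7217567-7217866, minus strand), a member with a low ratio on every day, held 2 GABPA motifs.
Ndufa4: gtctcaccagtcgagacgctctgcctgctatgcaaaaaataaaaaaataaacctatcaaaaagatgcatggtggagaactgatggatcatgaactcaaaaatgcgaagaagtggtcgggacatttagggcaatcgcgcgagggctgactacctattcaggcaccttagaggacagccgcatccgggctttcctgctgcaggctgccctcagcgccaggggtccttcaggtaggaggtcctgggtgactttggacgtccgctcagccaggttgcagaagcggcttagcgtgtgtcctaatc
Ndufa6: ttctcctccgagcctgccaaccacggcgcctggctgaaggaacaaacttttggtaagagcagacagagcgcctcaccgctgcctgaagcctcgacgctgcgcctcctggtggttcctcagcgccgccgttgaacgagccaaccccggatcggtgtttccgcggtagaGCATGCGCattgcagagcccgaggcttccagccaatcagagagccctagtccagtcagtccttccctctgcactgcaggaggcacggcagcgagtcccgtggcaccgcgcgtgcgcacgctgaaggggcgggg
Sdhaf1: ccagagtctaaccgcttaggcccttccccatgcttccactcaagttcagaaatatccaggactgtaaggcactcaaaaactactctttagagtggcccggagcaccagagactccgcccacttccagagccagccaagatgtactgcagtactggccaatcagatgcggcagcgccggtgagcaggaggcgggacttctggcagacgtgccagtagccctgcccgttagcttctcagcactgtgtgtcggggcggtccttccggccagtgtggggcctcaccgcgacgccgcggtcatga
Cox8a: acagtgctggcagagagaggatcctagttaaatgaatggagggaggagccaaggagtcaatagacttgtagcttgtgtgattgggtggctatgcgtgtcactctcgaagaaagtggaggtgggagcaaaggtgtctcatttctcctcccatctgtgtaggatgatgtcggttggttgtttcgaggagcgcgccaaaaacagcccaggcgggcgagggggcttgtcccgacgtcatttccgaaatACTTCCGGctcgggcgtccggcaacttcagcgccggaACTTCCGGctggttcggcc

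Over all members, 10 of 73 promoters held the NRF1 motif (13.7%), against 3.05% of 27025 genes. The members were Atp5g2, Atp5k, Atp5l, Cox6a1, Ndufa11, Ndufa6, Ndufa8, Sdhb, Uqcr11 and Uqcrc1. The YY1 motif was in 10 (13.7%) against 3.19% of genes, the GABPA motif in 5 (6.85%) against 4.31%, and the NRF2 motif in 10 (13.7%) against 14.0%. The NRF1 motif overlaps its own reverse complement where the letters run on, so 1 site can match on both strands. A match describes these letters in this window and not a bound site.

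The cell types of the cultures differed on day 7, and the members' level moved with cell type. Cells were clustered over both libraries, and clusters were named only where marker genes allowed. On day 7 the 10 dendritic cell markers summed to 9680.5 CPM in the control and 790 CPM in the heme culture. The 10 macrophage markers summed to 857 and 1549 CPM and the 10 neutrophil markers to 4613 and 29746 CPM, with 0 of these 30 markers at 0. Monocyte markers summed to 1275 and 869 CPM, progenitor markers to 109 and 296 CPM, erythroid markers to 233 and 228 CPM and megakaryocyte markers to 291 and 541 CPM. Markers of basophils or mast cells, eosinophils, B cells and T or NK cells summed to at most 42.6 CPM in both, with up to 2 markers of a list at 0. On day 3, before heme, neutrophil markers were at 111834 and 127099 CPM and progenitor markers at 6851 and 3241 CPM. The part of these shifts in the members' ratios was not tested.

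On day 7 the heme library held 536 neutrophil-like cells, whose share of member UMIs was 1.71%, beside 1250 macrophage-like cells with 2.29%. The control library held 1102 dendritic cell-like cells with 2.86% and 212 monocyte-like cells with 3.17%. Unnamed clusters held 1206 control cells with 3.02% and 152 heme cells with 2.21%. Of these control cells, 498 were in a cluster that the naming rule left unnamed, although it had 6 raised macrophage markers. Their member share was 3.16%. At this clustering no named class had 50 or more cells of both libraries on day 7. With 30 components in place of 15, 590 control cells of day 7 were neutrophil-like too, with a member share of 2.68% against 1.76% in 602 heme cells, so the day 7 classes and their order depend on the clustering. Cell type and heme cannot be told apart on day 7. Some clusters were almost all of 1 library: of the macrophage-like cluster, 99.6% of the cells were from the heme library.

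Before heme, clusters that held cells of both libraries could be compared. On day 3 the monocyte-like cluster had member shares of 3.43% in 253 control and 3.02% in 190 heme cells, and a dendritic cell-like cluster had 3.24% in 88 control and 2.83% in 98 heme cells. An unnamed cluster had 3.35% for control and 3.02% for heme. On day 0 a progenitor-like cluster had 2.95% and 2.42%, and the basophil or mast cell-like cluster 2.44% and 1.90%. In these 5 clusters the control share was the higher one. Of the neutrophil-like clusters, 1 held enough cells of both libraries on day 3, with 1.69% in 206 control and 1.70% in 335 heme cells, and on day 4 it had 1.58% in 304 and 1.70% in 211 cells. The neutrophil-like class as a whole had 1.99% for control and 1.72% for heme on day 3 and 1.70% and 1.48% on day 4, with most of its other cells in different clusters in the 2 libraries. On day 5 another dendritic cell-like cluster had 2.66% in the control and 2.42% in the heme library.

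Ndufa4 and AA467197 also differed between classes. In the day 7 control culture Ndufa4 was at 163 CPM in dendritic cell-like, 387 CPM in monocyte-like and 260 CPM in unnamed cells, and AA467197 at 1288, 868 and 1075 CPM in the same classes. In the 498 of these unnamed cells whose cluster had 6 raised macrophage markers, Ndufa4 was at 224 CPM and AA467197 at 1292 CPM. In the day 7 heme culture Ndufa4 was at 482 CPM in macrophage-like, 229 CPM in neutrophil-like and 377 CPM in unnamed cells, and AA467197 at 85.4, 410 and 204 CPM. On day 7 the class with the most Ndufa4 in each library had the least AA467197, and that with the least Ndufa4 the most AA467197. On day 3 this held only in part. Neutrophil-like cells then had the least Ndufa4 in control and heme (595 and 435 CPM), but dendritic cell-like cells the most AA467197 (343 and 435 CPM). Progenitor-like cells had the least AA467197 in both libraries (14.7 and 24.5 CPM). They had the most Ndufa4 in the control (1045 CPM), but monocyte-like cells did in the heme library (717 CPM).

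In the control library the median centred log2 change of the members was 0.29 from day 0 to day 3 and 0.01 from day 3 to day 7. In the heme library it was 0.28 and −0.14. From day 0 to day 3 the control change ranged from −0.05, in CPM without ribosomal protein and mitochondrially encoded genes, to 0.67 with TMM factors, and the heme change from −0.27 to 0.47 under the same settings. The sign and size of the early change thus depend on the scaling in both libraries.

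Other genes of the same pathway were described from lists chosen together with the members. Of all genes, 18.9% were called lower and 15.4% higher on day 7. Assembly factors of the complexes had median centred ratios of −0.35, −0.50, −0.56, −0.42 and −0.46 on days 0, 3, 4, 5 and 7, and 14 of 34 were called lower on day 7 and 0 higher. The electron carriers and their enzymes had −0.46 on day 3 and −0.38 on day 7, with 5 of 13 called lower and 1 higher. Among them Cycs, cytochrome c, stood at 211, 222, 159, 155 and 142 CPM for control and 166, 136, 86.0, 94.8 and 96.3 CPM for heme, lower in the heme library on each day. The list of ADP and ATP exchange and uncoupling, which also holds AA467197, had −0.54 on day 3 and −0.76 on day 7, with 6 of 8 lower. Without AA467197 it had −0.55 and −0.68, with 5 of 7 lower. The mitochondrial ribosome had −0.74 on day 3 and −0.57 on day 7, with 37 of 75 lower and 0 higher. The cytosolic ribosomal proteins had −0.60 and −0.73, with 56 of 82 lower and 0 higher.

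The citric acid cycle, whose enzymes deliver NADH and succinate to the chain, lay closer to the median gene. It had −0.38 on day 3 and −0.08 on day 7, with 4 of 17 called lower. The day 7 shares of all genes, 18.9% lower and 15.4% higher, stand beside this and the next counts. Regulators of mitochondrial transcription and biogenesis had 0.03 on day 3 and −0.04 on day 7, with 2 of 12 lower and 1 higher. The mitochondrially encoded subunits had 0.03 on day 3 and −0.08 on day 7, with 4 of 13 called higher and 0 lower. The 4 were mt-Nd4l, mt-Nd5, mt-Nd6 and mt-Atp8. mt-Nd4l stood at 277, 311, 284, 294 and 253 CPM for control and 528, 546, 479, 515 and 697 CPM for heme, and mt-Nd6 at 29.0, 20.9, 18.7, 23.7 and 36.2 CPM for control and 70.3, 59.5, 58.3, 69.2 and 74.0 CPM for heme. Both were higher in the heme library on each day, before heme too. mt-Nd6 lies on the strand opposite to the other coding genes of the mitochondrial genome, and mt-Nd4l and mt-Atp8 overlap their neighbours, so that their counts are uncertain.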

How the data were processed

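Raw UMI counts per gene and barcode were deposited by the authors, 1 matrix per library, with hashtag calls as text. The submitters' processing notes name Cell Ranger 4.0.0 and the build GRCm38.p6, whereas the matrix headers name Cell Ranger 5.0.0, so the version is uncertain. Barcodes called by the authors as singlets were kept with 500 to 5000 genes, under 15% mitochondrial and under 30% ribosomal protein UMIs, after the study's limits, read as upper limits. Doublets were removed only through the hashtag calls, so doublets within 1 culture day remain. Coordinates and transcript lengths come from GENCODE M21 by gene identifier, which placed all 90 members. UMIs were counted per gene at 3′ ends, with no scaling by length, so levels were compared within genes, and total UMIs served only to choose members to name.

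For each culture the UMIs of its cells were added up and scaled to 1000000 (CPM). Genes with a mean of 10 CPM over both cultures entered a comparison, and log2 ratios were centred on their median. Intervals at 95% are exact for the ratio of 2 Poisson counts and, for ratios divided by day 3, combine both counting errors. UMIs without replicate libraries give counting error only. Cells of both libraries were clustered with scanpy 1.11.5 (2000 variable genes, 15 components, 15 neighbours, Leiden resolution 1, igraph 0.11.9) without the members, the pathway lists, ribosomal protein and mitochondrial genes. A cluster was called "-like" with 3 or more raised markers of a type, where no other type had as many raised markers or more markers among its 10 leading genes, and unless its cells were shallow with no leading marker. Others stayed unnamed, among them 3 clusters with 3 or more raised markers, of macrophages (6 markers), T or NK cells (4) and dendritic cells (3). The other scalings used edgeR 4.0.16 (TMM) and DESeq2 1.42.0 size factors in R 4.3.3. No differential test was run. The steps were tested on simulated counts.

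The members, pathway lists and markers were chosen with earlier results of these data known. Named with values were, by rule, the 3 members with most UMIs per complex, the 3 highest and lowest ratios on days 4, 5 and 7, up to 20 members past 1.5-fold on day 7, the known isoforms and the genes of complex II, and in addition, chosen after their values were seen, AA467197, Cycs and 4 mitochondrially encoded genes. Alternatives were other cell limits, scalings, expression limits, cell weighting, fold limits, clustering settings, division by day 3 and leaving out non-subunits or shared barcodes.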

Additional observations from a re-analysis of the deposited data

Results flagged for a closer look

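Ndufa6 was the member flagged for opposite changes from day 3 to day 7 in the 2 libraries, relative to the median gene of each. The rule required both changes to lie beyond counting error and to differ from each other by 1.5-fold or more. Opposite changes that differed by less were not flagged. The centred log2 change was 0.44 for control and −0.40 for heme. With 1 culture per library and day, this difference was not tested.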

How the results depend on the processing

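The median centred log2 ratio of the members stayed below 0 on all 5 days under each of the alternatives run. Leaving out barcodes found in both libraries, or members that are no subunits, moved no median or count beyond the limits used (for a median the counting error of the members next to it, for a count 1.5 times). With all singlets the medians were −0.75, −0.50, −0.68, −0.49 and −0.64 on days 0, 3, 4, 5 and 7, with 60 members lower on day 0 and 23 on day 5, and the lower limit of 500 genes alone gave −0.75, −0.50, −0.68, −0.49 and −0.64, with 60 and 23. Without the upper limit of 5000 genes they were −0.40, −0.50, −0.68, −0.49 and −0.65, with 16 members lower on day 0 and 24 on day 5. Without centring they were −0.26, −0.30, −0.53, −0.41 and −0.45, with 3, 10, 33, 25 and 20 members lower, and 1 higher on day 0 and 2 on day 7. In CPM without ribosomal protein and mitochondrially encoded genes they were −0.21, −0.36, −0.60, −0.48 and −0.55, with 3, 15 and 34 lower on days 0, 3 and 7 and 1 higher on day 0. TMM factors gave −0.63 on day 3 and −0.70 on day 5. A limit of 1 CPM gave −0.61 on day 3. A limit of 50 CPM gave −0.39, −0.42, −0.61, −0.49 and −0.59, with 14 lower and 1 higher on day 0 and 19 lower on day 3. Weighting cells equally gave 1 member higher on day 0 and 0 on day 7, since Ndufa4 then stood at 0.55. Divided by day 3, the medians were −0.16, −0.056 and −0.16, with 0, 0 and 2 members lower and 1 higher on day 5. On day 7, a fold limit under 1.5 gave 2 members higher, and 2-fold gave 0 higher and 8 lower. Among these alternatives, shares of all genes were computed only without centring and on division by day 3. Of 2286 values of the 54 named members under the alternatives, 2233 had the sign of the value reported, and 12 values of members called lower turned positive, each on division by day 3: on day 4 Sdhaf4 (0.43), on day 5 Atp5d (0.010), Atp5g1 (0.17), Atp5g2 (0.15), Ndufa4 (0.16), Ndufc2 (0.021), Sdhb (0.010) and Sdhd (0.066), and on day 7 Atp5g1 (0.38), Sdhaf4 (0.38), Sdhd (0.052) and Uqcrb (0.040). The change from day 0 to day 3 in the control library was −0.00733 with all singlets, −0.00798 with 500 genes only, 0.67 with TMM, 0.46 with DESeq2 size factors, 0.030 without centring and −0.048 without ribosomal protein and mitochondrially encoded genes. In the heme library it was 0.47 with TMM, 0.39 with DESeq2, −0.086 without centring, −0.27 without those genes, 0.43 with cells weighted equally, 0.38 at 1 CPM and 0.16 at 50 CPM. From day 3 to day 7 the control change was −0.17 with TMM, −0.075 with DESeq2 and −0.087 at 1 CPM, and the heme change −0.20 with TMM. The causes of these shifts were not tested. At resolution 0.5 the day 7 member shares were 2.87% in dendritic cell-like and 3.07% in unnamed control cells and 1.74% in neutrophil-like and 2.25% in unnamed heme cells. With 30 components they were 3.15% in unnamed and 2.68% in 590 neutrophil-like control cells and 2.30%, 1.76% and 2.35% in macrophage-like, neutrophil-like and unnamed heme cells. No paired analysis was possible because each group had 1 library, and no library could be left out.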
